A study of Oncorhynchus mykiss with 18 samples.

Results

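A set of 53 transcripts of whole rainbow trout alevins that were already expressed without estrogen stood higher at the high end of an exposure to 17α-ethinylestradiol (EE2), a synthetic estrogen used in birth control pills that reaches rivers with waste water. The fish (Oncorhynchus mykiss) were sampled at 4 days post-hatch after 96 hours in flowing water at 14 °C. The solvent group received 0.01% DMSO, and 5 groups received EE2, at measured concentrations of 1.13 and 1.57 ng/L at the low end, 6.22 ng/L in the middle, and 16.3 as well as 55.1 ng/L at the high end. Each group held 3 libraries (replicates A, B and C), and each library was made from a pool of 3 alevins. A higher concentration named in the series' design text was not analysed here. Whether pools of one group had tanks of their own is not stated in the labels. A p-value here therefore weighs a difference only against the spread of these pools, part of which may be technical.

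The members were chosen by their levels in 9 of the 18 libraries: solvent, 16.3 and 55.1 ng/L. Levels are CPM, the estimated counts of a transcript scaled to a common library total, and they are not corrected for transcript length. A member had a mean solvent level of at least 1 CPM, and its lowest level in the 6 libraries of 16.3 and 55.1 ng/L was at least 1.4 times its highest level in solvent. Of 79244 transcripts 45507 met the first condition, and 54 of these (0.119%) met the second. One of the 54, XM_021598364.1 of the estrogen receptor gene esr1, was left out by the rule, which gave 53. Because the rule used solvent, 16.3 and 55.1 ng/L, values of those groups and all ratios to solvent are a description and carry no test. The tests use the 9 libraries of 1.13, 1.57 and 6.22 ng/L, which the rule did not use.

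In egg-laying vertebrates estrogen binds its receptor in the liver, and the receptor switches on genes for yolk and egg envelope proteins that immature fish hardly express. A liver cell that exports these proteins in bulk also uses more of its secretory machinery, from folding in the endoplasmic reticulum to transport into the Golgi. By the rule each member had a mean solvent level of at least 1 CPM, which leaves out transcripts with lower means. The limit is low, and 28 of the 53 members had means under 5 CPM. Most have no gene symbol, so whether some encode egg proteins cannot be told from their names. Whole fish were sequenced, so more cells of a type and more RNA per cell cannot be told apart in any value given here.

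By accession, 32 members matched a gene name in the RefSeq gene table, in 31 genes. Only 10 of the 32 have a symbol other than a LOC number, and 21 members did not match, beside 42410 of all 79244 transcripts (53.5%) that did. In RefSeq's naming 45 members are predicted mRNAs (XM), 2 are curated mRNAs (NM) and 6 are predicted non-coding RNAs (XR). Non-coding records made up 11.3% of members and 5.46% of all transcripts with a mean solvent level of at least 1 CPM. Members were 288 to 10437 bases long with a median of 1906, and the median over those expressed transcripts was 2771.

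Mean solvent levels of the members ran from 1.04 to 475 CPM with a median of 3.89 CPM. They were under 5 CPM for 28 members, over 10 CPM for 18 and over 100 CPM for 7. The ratio of the lowest high-concentration library to the highest solvent library, on which the choice rests, had a median of 1.84. It was over 2 for 17 members, over 3 for 8 and over 10 for 3. Together the members took 0.174 to 0.200% of the counts of a solvent library, 0.506 to 0.706% at 1.13 ng/L, 0.426 to 0.472% at 1.57 ng/L and 0.180 to 0.379% at 6.22 ng/L. The share was 0.719 to 0.852% for libraries of 16.3 ng/L and 0.426 to 0.564% for those of 55.1 ng/L. The share at 1.13 ng/L thus overlapped that at 55.1 ng/L, and the group of 6.22 ng/L reached down into the solvent range. These shares mostly follow a few abundant members and not the set as a whole. Counting each member alike, the median log2 ratio to solvent was 0.42 at 1.13, 0.78 at 6.22 and 1.52 at 55.1 ng/L.

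Solvent libraries held 12658946 to 17076432 estimated counts, those of 6.22 ng/L 15365201 to 16164585 and those of 55.1 ng/L 13013502 to 16122131. The other groups were sequenced more deeply, with 23837786 to 32851570 counts at 1.57 ng/L, 26160497 to 28166132 at 1.13 ng/L and 19679734 to 29635724 at 16.3 ng/L. The median gap between transcript length and effective length was also larger in those 3 groups (215 to 230 bases) than in solvent, 6.22 and 55.1 ng/L (172 to 195 bases). Effective length exceeded length for 9487 to 10727 transcripts in each library of 1.13 to 16.3 ng/L and for 0 in solvent and 55.1 ng/L, so the deposited tables are of 2 kinds. Each of the 3 tests compares tables of the same kind. However, tests of 6.22 ng/L against the lower concentrations also compare libraries of unlike depth and gap, which cannot be told apart from concentration. Every ratio to solvent at 1.13 to 16.3 ng/L, and the rule at 16.3 ng/L, sets tables of unlike kind against each other. The part of this difference in those ratios was not tested.

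**Figure D1:**
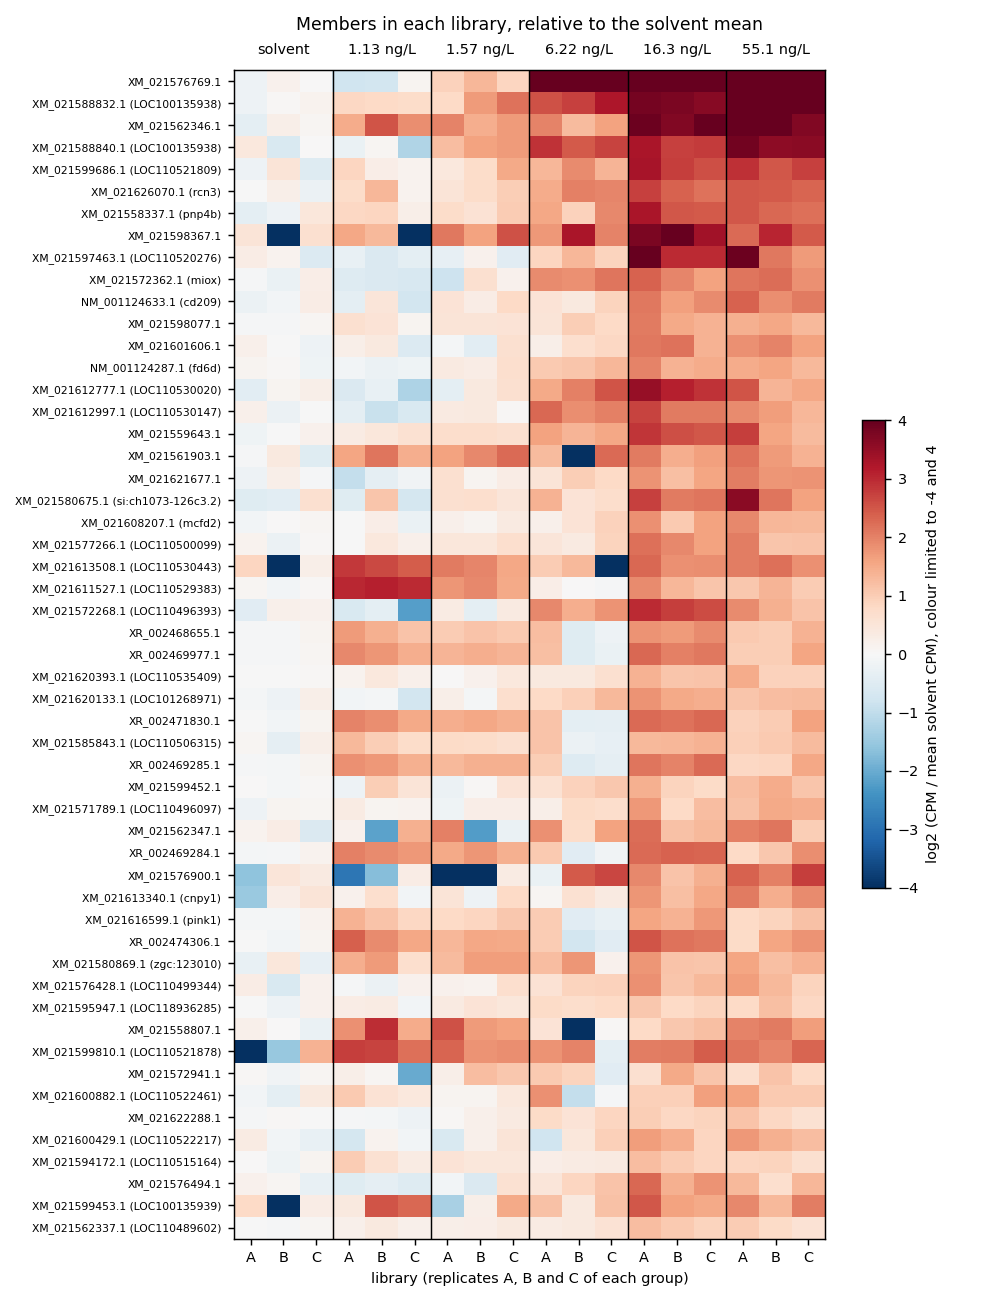
Each row is 1 of the 53 members and each column 1 of the 18 libraries; colour is the log2 ratio of a library's CPM to the member's mean solvent CPM, with the darkest colours holding everything beyond the scale. Rows run from the largest to the smallest ratio used by the rule, the 6 right-hand columns are high because the rule chose them so, and the columns of 1.13, 1.57 and 6.22 ng/L, which it did not use, differ from member to member.

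The member with the largest ratio, XM_021576769.1, has no name in the table. Its levels in replicates A, B and C were 2.21, 2.83 and 2.53 CPM in solvent, 1.44, 1.51 and 2.72 CPM at 1.13 ng/L and 4.82, 6.35 and 4.54 CPM at 1.57 ng/L. They were 65.2, 60.9 and 89.3 CPM at 6.22 ng/L, 192, 129.9 and 131 CPM at 16.3 ng/L and 246, 199 and 132 CPM at 55.1 ng/L. From 1.57 ng/L upward every library was above the highest solvent library, and the widest step, as a ratio of group means, lay between 1.57 and 6.22 ng/L. Between those groups XM_021576769.1 rose by a log2 fold change of 3.92 (SE 0.31, adjusted p = 0.00824 in edgeR), and against 1.13 ng/L by 5.47 (SE 0.34, adjusted p = 0.00121 in edgeR).

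Both transcripts matched to LOC100135938, a gene without a symbol, were members. XM_021588832.1 had 3.60, 4.34 and 4.56 CPM in solvent, 7.42, 7.30 and 6.90 CPM at 1.13 ng/L, and 7.26, 13.5 and 18.9 CPM at 1.57 ng/L. It went on to 24.6, 27.5 and 39.6 CPM at 6.22 ng/L, 59.0, 57.3 and 51.7 CPM at 16.3 ng/L and 80.7, 70.4 and 75.3 CPM at 55.1 ng/L. All its exposed libraries were above all solvent libraries, and from 6.22 ng/L on the groups did not overlap. XM_021588840.1 had a mean of 5.25 ± 1.81 CPM in solvent, 4.06 ± 1.66 CPM at 1.13 ng/L, 15.1 ± 2.38 CPM at 1.57 ng/L, 33.9 ± 5.09 CPM at 6.22 ng/L and 68.2 ± 7.37 CPM at 55.1 ng/L (SD, n = 3). Against 1.13 ng/L the first rose at 6.22 ng/L by 2.296 (SE 0.35, adjusted p = 0.015 in edgeR) and the second by 3.26 (SE 0.33, adjusted p = 0.0052). The call of XM_021588832.1 was lost without replicate A (adjusted p = 0.0624) or B (0.0683) of 1.13 ng/L.

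The third largest ratio belonged to XM_021562346.1, also unnamed, whose course was different. Its levels were 1.402, 2.18 and 1.97 CPM in solvent and 5.21, 10.7 and 6.73 CPM at 1.13 ng/L. They were then 7.30, 5.03 and 6.04 CPM at 1.57 ng/L and 7.34, 4.47 and 5.69 CPM at 6.22 ng/L. At 16.3 ng/L they were 28.2, 23.9 and 30.3 CPM, and at 55.1 ng/L 68.2, 35.5 and 24.1 CPM. The 3 lower groups overlapped one another and stood apart from solvent below and from 16.3 ng/L above. Among the other members with the largest ratios, LOC110521809 had 0.937 to 1.90 CPM in solvent, 1.45 to 3.77 CPM over the 6 libraries of 1.13 and 1.57 ng/L, 3.34 to 4.88 CPM at 6.22 ng/L and 7.38 to 13.2 CPM in the high groups. XM_021598077.1 had 5.51 to 6.09 CPM in solvent, 6.23 to 8.92 CPM at 1.13 ng/L, 8.12 to 8.43 CPM at 1.57 ng/L, 8.29 to 11.3 CPM at 6.22 ng/L and 14.1 to 24.2 CPM in the high groups, so that every exposed library was above solvent.

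Among members of the secretory pathway, mcfd2 encodes a partner of the cargo receptor that carries proteins from the endoplasmic reticulum to the Golgi. Its levels were 13.4, 14.5 and 15.2 CPM in solvent, 14.1, 17.1 and 11.9 CPM at 1.13 ng/L, 16.4, 15.6 and 18.4 CPM at 1.57 ng/L and 16.6, 21.1 and 27.3 CPM at 6.22 ng/L. At 16.3 ng/L it had 50.8, 29.8 and 44.3 CPM and at 55.1 ng/L 54.9, 36.2 and 35.0 CPM. At 6.22 ng/L all 3 libraries were above solvent, and the difference from 1.13 ng/L of 0.80 (SE 0.22) did not pass the threshold (adjusted p = 0.0787 in edgeR). The canopy family gene cnpy1, whose product in zebrafish acts in the endoplasmic reticulum in fibroblast growth factor signalling, had 0.47 to 1.91 CPM in solvent, 1.15 to 2.28 CPM over the 9 libraries of 1.13 to 6.22 ng/L, 3.04 to 4.46 CPM at 16.3 ng/L and 3.63 to 5.55 CPM at 55.1 ng/L. It thus overlapped solvent at all 3 lower concentrations. The member transcript of rcn3, for a calcium-binding protein of the endoplasmic reticulum, had 2.54, 3.04 and 2.19 CPM in solvent, 7.18, 10.4 and 10.1 CPM at 6.22 ng/L and 11.6 to 17.4 CPM at the 2 high concentrations. Its difference between 6.22 and 1.57 ng/L of 1.205 (SE 0.31) did not pass (adjusted p = 0.0794 in edgeR).

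Among enzymes, miox encodes myo-inositol oxygenase, which opens the breakdown of myo-inositol. Its levels were 9.95, 8.47 and 12.3 CPM in solvent, 7.15, 6.91 and 6.59 CPM at 1.13 ng/L and 5.76, 16.0 and 11.5 CPM at 1.57 ng/L. They were 38.3, 36.5 and 44.7 CPM at 6.22 ng/L, 52.9, 39.9 and 31.3 CPM at 16.3 ng/L and 45.0, 47.7 and 36.0 CPM at 55.1 ng/L. The 3 higher groups overlapped one another and lay above all libraries of the other 3. At 6.22 ng/L the mean had covered 92.7% of the way from the solvent mean to the mean of the 2 high groups. The transcript rose at 6.22 ng/L by 2.74 against 1.13 ng/L (SE 0.34, adjusted p = 0.0093 in edgeR) and by 1.98 against 1.57 ng/L (SE 0.33, adjusted p = 0.0288). The second call of miox was lost without replicate A (adjusted p = 0.0617) or B (0.0539) of 1.13 ng/L, C of 1.57 ng/L (0.0881), and A (0.0528) or C (0.0804) of 6.22 ng/L.

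The purine nucleoside phosphorylase gene pnp4b, whose enzyme splits purine nucleosides, had 1.91, 2.21 and 3.46 CPM in solvent, 4.44, 4.58 and 2.94 CPM at 1.13 ng/L and 4.195, 3.76 and 5.08 CPM at 1.57 ng/L. It had 7.36, 4.82 and 9.54 CPM at 6.22 ng/L, 24.2, 14.0 and 13.8 CPM at 16.3 ng/L and 14.0, 12.4 and 11.5 CPM at 55.1 ng/L. All libraries of 1.57 and 6.22 ng/L were above all of solvent, and one library of 1.13 ng/L fell within the solvent range. The difference of pnp4b between 6.22 and 1.13 ng/L was 1.08 (SE 0.33) and did not pass (adjusted p = 0.0981 in edgeR).

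The gene fd6d encodes the delta-6 fatty acyl desaturase, which makes long-chain polyunsaturated fatty acids, and is named here after its values were seen. It had 32.5, 31.0 and 26.8 CPM in solvent, 27.97, 25.8 and 26.6 CPM at 1.13 ng/L, 38.4, 37.1 and 48.4 CPM at 1.57 ng/L and 61.5, 64.9 and 75.1 CPM at 6.22 ng/L. At 16.3 ng/L it had 119.5, 79.2 and 83.6 CPM and at 55.1 ng/L 85.0, 89.9 and 74.5 CPM. No library of 1.57 ng/L overlapped those of 1.13 or 6.22 ng/L. At 6.22 ng/L fd6d rose by 1.53 against 1.13 ng/L (SE 0.14, adjusted p = 0.00393 in edgeR) and by 0.84 against 1.57 ng/L (SE 0.14, adjusted p = 0.0277). The second call of fd6d did not hold when replicate A of 1.13 ng/L was left out (adjusted p = 0.0581), nor without any library of 1.57 ng/L (0.0981 for A, 0.0958 for B and 0.0538 for C).

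The C-type lectin receptor gene cd209, whose product on immune cells binds sugars of pathogens, had 7.80, 8.53 and 11.4 CPM in solvent and 6.98, 13.1 and 5.50 CPM at 1.13 ng/L. It had 13.4, 11.5 and 16.0 CPM at 1.57 ng/L, 13.4, 12.2 and 17.1 CPM at 6.22 ng/L, 40.1, 29.1 and 34.4 CPM at 16.3 ng/L and 47.9, 33.6 and 39.0 CPM at 55.1 ng/L. The groups of 1.57 and 6.22 ng/L overlapped almost wholly, just above solvent, and the high groups lay well above both. Its log2 difference between 6.22 and 1.57 ng/L was 0.21 (SE 0.33, adjusted p = 0.822 in edgeR).

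**Figure D2:**
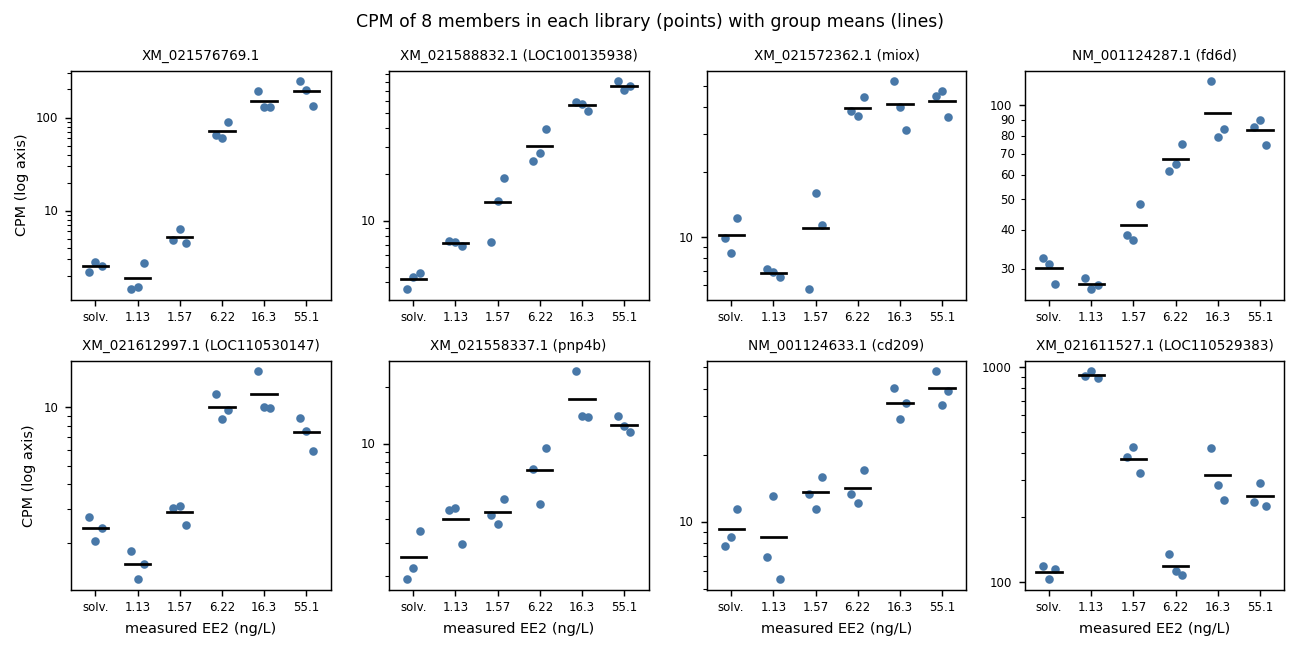
CPM on a log axis of 8 members in every library (points, replicates A to C from left to right) by measured EE2 concentration, with the group mean as a line. XM_021576769.1, miox and LOC110530147 step up between 1.57 and 6.22 ng/L, cd209 steps up between 6.22 and 16.3 ng/L, and LOC110529383 is highest at 1.13 ng/L, with a mean of 919 CPM.

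To follow the members below the concentrations that chose them, each group mean was divided by the solvent mean. The median log2 ratio over the 53 members was 0.42 for 1.13, 0.56 for 1.57 and 0.78 for 6.22 ng/L, and by the rule it was 1.89 for 16.3 and 1.52 for 55.1 ng/L. Over all expressed transcripts the same medians were -0.03, -0.09, -0.19, -0.19 and -0.23. With TMM scaling, which corrects for the composition of a library, the medians of all expressed transcripts were between -0.04 and -0.01, and that of the members at 6.22 ng/L was 0.95. Single members ranged at 1.13 ng/L from -0.87 to 3.04, at 1.57 ng/L from -1.25 to 2.14 and at 6.22 ng/L from -0.26 to 4.83.

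All 3 libraries were above the highest solvent library for 23 members at 1.13 ng/L (43.4%), beside 14.8% of all expressed transcripts. At 1.57 ng/L this held for 31 members (58.5%), beside 10.6%, and at 6.22 ng/L for 32 members (60.4%), beside 1.8%. All ratios share the solvent libraries, and a low solvent maximum was part of the choice, so the members were favoured in these counts. The counts also compare tables of unlike kind, and at 1.13 and 1.57 ng/L libraries of unlike depth, for members and all expressed transcripts alike. By pattern, 6 members were above solvent at all 3 concentrations, beside 0.215% of all expressed transcripts, 14 at 6.22 ng/L alone (1.25%), 10 at 1.57 and 6.22 ng/L (0.119%) and 2 at 1.13 and 6.22 ng/L (0.22%). Another 14 were above at 1.13 and 1.57 ng/L (7.65%), 1 at 1.13 ng/L alone (6.71%), 1 at 1.57 ng/L alone (2.65%) and 5 at none (81.2%). Means rose in the order 1.13, 1.57 and 6.22 ng/L for 28 members (52.8%), beside 13.3% of all expressed transcripts. The mean of 1.13 ng/L was below the solvent mean for 17 members, that of 1.57 ng/L for 2 and that of 6.22 ng/L for XM_021558807.1 alone.

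The highest group mean was that of 16.3 ng/L for 29 members, 55.1 ng/L for 17, 1.13 ng/L for 5 and 1.57 ng/L for 2. In 4 members all libraries of 55.1 ng/L were above all of 16.3 ng/L, beside 5.87% of all expressed transcripts, and in 14 members (26.4%) all were below, beside 9.29%. The rule used both groups, so these counts are a description. By the middle of the range, at 6.22 ng/L, 17 members had covered 50% or more of the way from the solvent mean to the mean of the 2 high groups. Of these, XM_021576900.1, XM_021561903.1, XM_021572941.1 and zgc:123010 were not above solvent in every library of 6.22 ng/L. Within 16.3 ng/L replicate A was the highest library of its group in 40 of 53 members, with a median log2 ratio to solvent of 2.12 against 1.62 and 1.63 in B and C. Within 55.1 ng/L replicate A was the highest in 26 members, with a median of 1.88 against 1.49 and 1.46. The share of all expressed transcripts was not counted for either group, so a trait of the library cannot be told from one of the members.

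**Figure D3:**
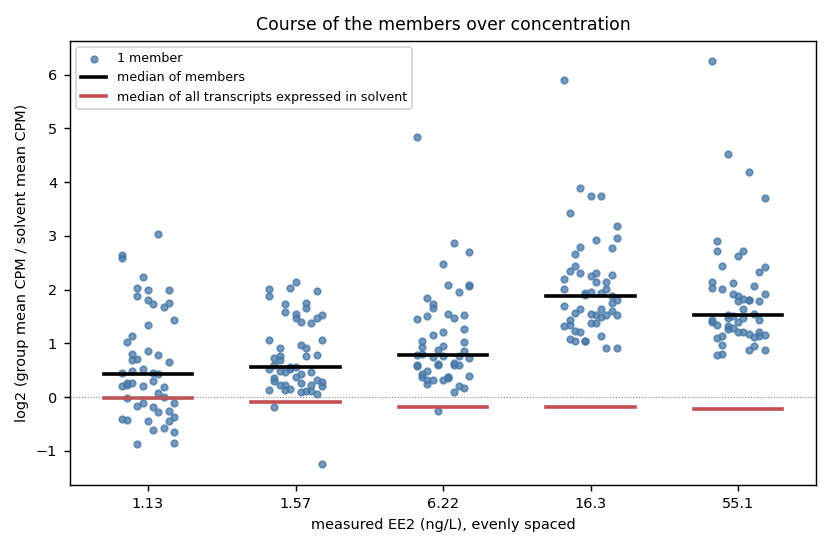
Each point is 1 member: the log2 ratio of its group mean CPM to its solvent mean CPM, by measured EE2 concentration on an evenly spaced axis. Black lines are the medians of the 53 members (0.42, 0.56, 0.78, 1.89 and 1.52), red lines those of all expressed transcripts (-0.03 to -0.23); values at 16.3 and 55.1 ng/L are fixed above 0 by the choice of members.

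The 3 concentrations that the rule did not use were compared with each other in edgeR over 58149 transcripts, which included all 53 members. Against 1.13 ng/L, 16 members rose at 6.22 ng/L (30.2%), beside 2.76% of all transcripts tested, and 1 fell (1.89%), beside 3.74%. Against 1.57 ng/L, 7 members rose (13.2%), beside 1.14%, and 1 fell (1.89%), beside 1.98%. Between 1.57 and 1.13 ng/L 0 members passed in either direction, beside 0% of all transcripts in both; 10 members and 2516 transcripts had an unadjusted p under 0.05, and DESeq2 called 5 members and 695 transcripts. The member medians of the log2 fold change were 0.76, 0.47 and 0.28 in these 3 tests, beside -0.03, -0.03 and 0.00 over all transcripts. In the tests of 6.22 ng/L, 37 of 53 members had a positive value in each, beside 47.8% of all transcripts; the 2 tests share the libraries of 6.22 ng/L.

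Leaving out single libraries changed these counts. The 8 calls against 1.57 ng/L became 3 without replicate A of 1.13 ng/L or C of 1.57 ng/L, 4 without B of 1.13, A or B of 1.57 or C of 6.22 ng/L, and 12 without A of 6.22 ng/L. Calls over all transcripts fell in the same fits. Against 1.57 ng/L the 1813 became 523 and 459 in the fits with 3 member calls. They became 285 to 1001 in the fits with 4 and 1433 without A of 6.22 ng/L. The 17 member calls against 1.13 ng/L became 6 and 7 without replicates A and B of 1.13 ng/L, where the 3780 calls over all transcripts became 765 and 710. Kept in every such fit were 6 of the 17, namely XM_021576769.1, XM_021588840.1, miox, fd6d, LOC110530147 and LOC110529383, and 3 of the 8, namely XM_021576769.1, LOC110530147 and LOC110529383.

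**Figure D4:**
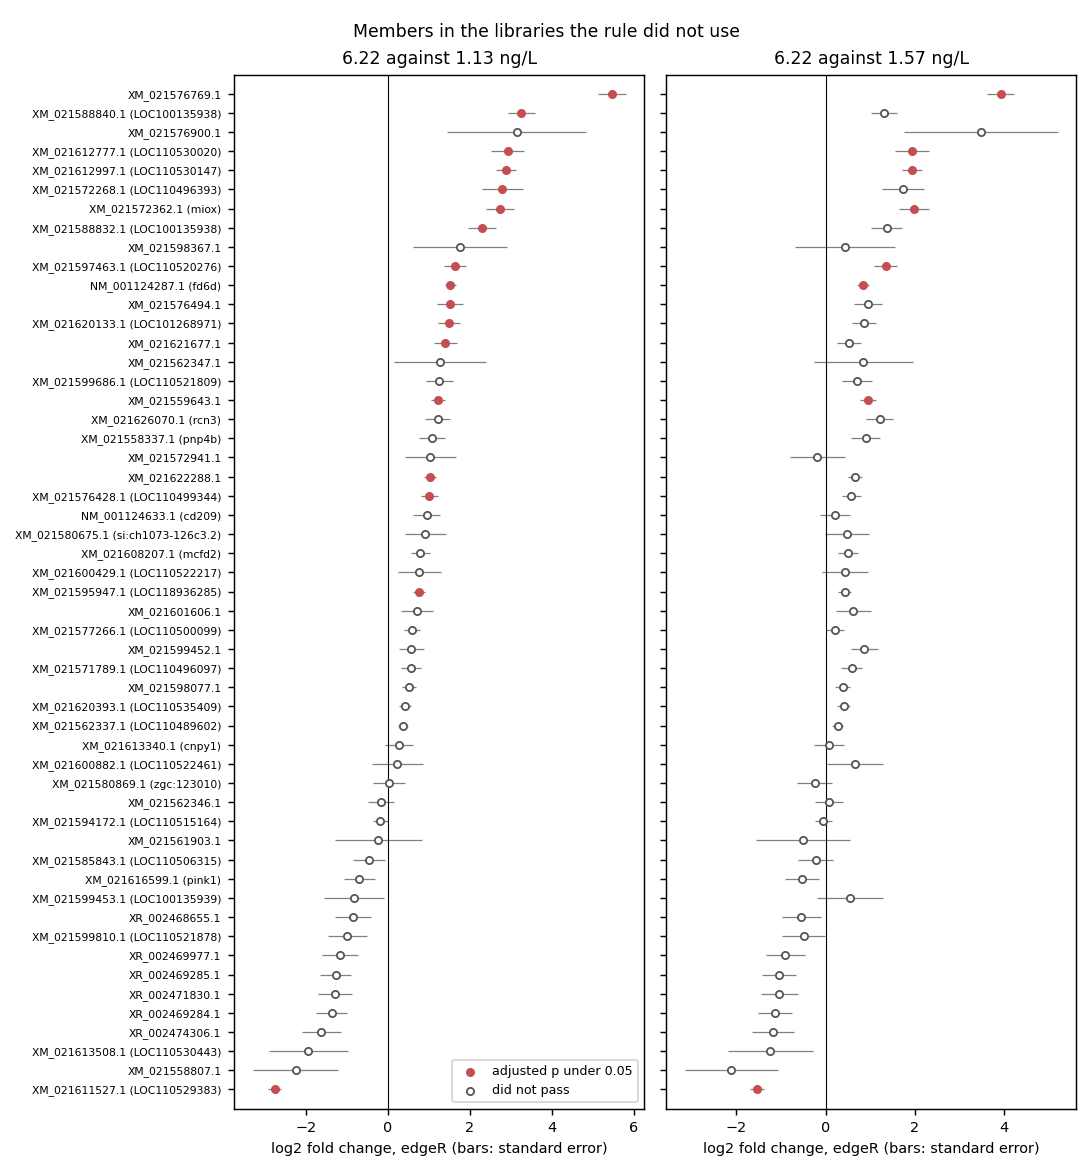
Log2 fold changes of the 53 members in edgeR (bars: 1 standard error) at 6.22 ng/L against 1.13 ng/L on the left and 1.57 ng/L on the right, ordered by the left panel; filled points have an adjusted p under 0.05. On the left 16 filled points lie above 0 and 1 below, on the right 7 above and 1 below, and the lowest filled point in both is LOC110529383.

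Several of the largest rises between the lower concentrations were in genes known only by a LOC number. LOC110530147 had 2.72, 2.04 and 2.38 CPM in solvent, 1.82, 1.30 and 1.55 CPM at 1.13 ng/L and 3.02, 3.10 and 2.48 CPM at 1.57 ng/L. It had 11.8, 8.70 and 9.70 CPM at 6.22 ng/L, 15.3, 10.0 and 9.94 CPM at 16.3 ng/L and 8.75, 7.58 and 5.93 CPM at 55.1 ng/L. It rose by 2.88 against 1.13 ng/L (SE 0.24, adjusted p = 0.00274 in edgeR) and by 1.93 against 1.57 ng/L (SE 0.23, adjusted p = 0.0134). Its group of 6.22 ng/L overlapped both high groups, which did not overlap each other, and its mean was 106% of the way to the high groups.

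LOC110530020 went from a mean of 2.34 ± 0.717 CPM at 1.13 ng/L and 4.49 ± 1.52 CPM at 1.57 ng/L to 15.5 ± 5.15 CPM at 6.22 ng/L, with 33.5 ± 7.19 CPM at 16.3 and 13.8 ± 6.39 CPM at 55.1 ng/L (SD, n = 3). It rose by 2.93 against 1.13 ng/L (SE 0.40, adjusted p = 0.0114 in edgeR) and by 1.93 against 1.57 ng/L (SE 0.39, adjusted p = 0.0439). The first call was lost without replicate A of 1.13 ng/L (adjusted p = 0.0522), and the second in 7 of 9 fits, all but those without C of 1.13 or A of 6.22 ng/L (0.0661 to 0.125). LOC110496393 rose by 2.80 against 1.13 ng/L (SE 0.49, adjusted p = 0.0216 in edgeR), a call lost without replicate A (0.0738) or B (0.0659) of 1.13 or C of 6.22 ng/L (0.0635). Its mean was 0.863 ± 0.457 CPM at 1.13 ng/L, 5.26 ± 0.867 CPM at 6.22 ng/L and 10.9 ± 1.49 CPM at 16.3 ng/L, and at 55.1 ng/L it was back at 4.51 ± 1.23 CPM. LOC110520276 rose by 1.65 and 1.34 in the 2 tests (adjusted p = 0.0169 and 0.0405 in edgeR). Of 1.13 ng/L, leaving out replicate A (0.0602) or B (0.0738) ended its first call, and its second was lost in every one of 9 fits with a library left out (0.0601 to 0.133). In the high groups of LOC110520276 replicate A stood apart, with 29.4 CPM beside 14.2 and 14.4 CPM at 16.3 ng/L and 27.2 CPM beside 7.75 and 5.84 CPM at 55.1 ng/L.

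The other members that rose at 6.22 ng/L against 1.13 ng/L did so by 0.76 to 1.51 on the log2 scale. They were XM_021576494.1, LOC101268971, XM_021621677.1, XM_021559643.1, XM_021622288.1, LOC110499344 and LOC118936285, of which XM_021559643.1 also rose against 1.57 ng/L (0.95, adjusted p = 0.0355 in edgeR). All but XM_021576494.1 are named after their values were seen, and none of these calls held in every fit with 1 library left out. The calls of XM_021559643.1 and XM_021622288.1 against 1.13 ng/L were lost in 2 fits, those without A and without B of 1.13 ng/L (adjusted p from 0.0532 to 0.0638). That of LOC101268971 was also lost without C of 6.22 ng/L (0.0609 to 0.0741 over the 3). XM_021576494.1, XM_021621677.1 and LOC118936285 each lost theirs in 6 of 9 fits, and LOC110499344 in 7, in each case also without A and B of 1.13 and C of 6.22 ng/L (0.0509 to 0.129). Their further losses came without C of 1.13 (XM_021576494.1 and LOC110499344), A of 1.57 (these 2 and LOC118936285), B of 1.57 (LOC110499344 and XM_021621677.1), C of 1.57 (XM_021621677.1 and LOC118936285), A of 6.22 (LOC118936285) or B of 6.22 ng/L (all but LOC118936285). The call of XM_021559643.1 against 1.57 ng/L was lost in 7 of 9 fits, all but those without C of 1.13 or B of 6.22 ng/L (0.0627 to 0.11).

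A second kind of course lay above solvent at the 2 lowest concentrations but not in every library of 6.22 ng/L. In 14 members (26.4%), beside 7.65% of all expressed transcripts, all libraries of 1.13 and of 1.57 ng/L but not of 6.22 ng/L were above the highest solvent library. A single library of 6.22 ng/L was enough for this, so not all these members were low there. The member transcript of LOC110521878 had 33.2, 37.1 and 7.20 CPM at 6.22 ng/L. That of zgc:123010 had 3.69, 5.40 and 1.78 CPM beside 1.29, 2.17 and 1.25 CPM in solvent. Summed over all matched transcripts, however, neither gene had a higher mean at 6.22 ng/L than in solvent. LOC110521878 had 41.9 CPM beside 44.3 CPM in solvent, and zgc:123010 had 4.45 CPM beside 4.85 CPM. LOC110529383, the longest member, was the one member that fell in both tests. It had 118, 103 and 115 CPM in solvent, 906, 958 and 894 CPM at 1.13 ng/L and 381, 424 and 323 CPM at 1.57 ng/L. At 6.22 ng/L it was at 136, 113 and 108 CPM, then at 419, 284 and 242 CPM at 16.3 ng/L and 237, 289.5 and 226 CPM at 55.1 ng/L. The group of 6.22 ng/L overlapped solvent, while every other exposed library lay above both. LOC110529383 fell by 2.76 against 1.13 ng/L (SE 0.15, adjusted p = 0.00112 in edgeR) and by 1.54 against 1.57 ng/L (SE 0.15, adjusted p = 0.01).

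Of these 14 members, 6 were the XR transcripts, all the non-coding records in the set. The one with the highest solvent level, XR_002474306.1, had 471, 441 and 513 CPM in solvent, 2482, 1780.3 and 1381 CPM at 1.13 ng/L and 1193, 1397 and 1364 CPM at 1.57 ng/L. At 6.22 ng/L replicate A had 964 CPM, and B and C had 284 and 347 CPM, below every solvent library. At 16.3 ng/L it had a mean of 2290.2 ± 359 CPM and at 55.1 ng/L 810.1, 1421 and 1637 CPM. XR_002469977.1 followed it, with 236 to 261 CPM in solvent, 667 to 922 CPM at 1.13 ng/L, 624 to 677 CPM at 1.57 ng/L, 563, 174 and 204 CPM at 6.22 ng/L, 994 to 1205 CPM at 16.3 ng/L and 482 to 738 CPM at 55.1 ng/L. XR_002469284.1 had 182 to 212 CPM in solvent, 646 to 779 CPM at 1.13 ng/L and 402, 143 and 178 CPM at 6.22 ng/L. In all 6, replicates B and C of 6.22 ng/L were below the lowest solvent library. XR_002471830.1 had 113 to 131 CPM in solvent and 347 to 475 CPM at 1.13 ng/L, and XR_002468655.1 had 95.9 to 107 CPM and 218 to 324 CPM. The kinase gene pink1, which acts in the quality control of mitochondria, had the same shape: 128, 128 and 149 CPM in solvent, 354, 298 and 239.7 CPM at 1.13 ng/L, 233, 244 and 283 CPM at 1.57 ng/L and 271, 99.5 and 109 CPM at 6.22 ng/L. At 16.3 ng/L pink1 had 402, 351 and 451 CPM and at 55.1 ng/L 236, 249 and 306 CPM.

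This split of replicate A from B and C at 6.22 ng/L was noticed in the values and then counted. In 9 members (17.0%), beside 3.67% of all expressed transcripts, replicate A of 6.22 ng/L was over 2 times both other libraries of its group. They were the 6 XR transcripts, pink1, LOC110506315 and LOC110522461. Replicate B was so in 1 member and C in 0, for which the share of all expressed transcripts was not counted. For the first 8, each above 30 CPM in solvent, replicate A was 2.50 to 3.06 times the mean of B and C. Their summed level was 1300 to 1489 CPM in solvent, 3735 to 5665 CPM at 1.13 ng/L and 3374 to 3792 CPM at 1.57 ng/L. In the group of 6.22 ng/L it was 2916 CPM in A but 942 and 1099 CPM in B and C, then 5713 to 6553 CPM at 16.3 ng/L and 2494 to 4308 CPM at 55.1 ng/L. The groups of 1.13, 1.57 and 16.3 ng/L, where the sum was highest apart from the upper end of 55.1 ng/L, are those with the largest totals and length gaps; the part of those traits in the result was not tested.

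In the edgeR fit with all 9 libraries of 1.13, 1.57 and 6.22 ng/L these 8 members passed neither of the tests of 6.22 ng/L. When its replicate A was left out, so that 2 libraries remained in that group, the calls in the lower direction came to 8 of all 53 members against 1.57 ng/L (15.1%), beside 1.74% of all transcripts, and to 9 against 1.13 ng/L (17.0%), beside 3.25%. In the higher direction 4 members were called against 1.57 ng/L, beside 0.602% of all transcripts, and 15 against 1.13 ng/L, beside 1.43%. Among the lower calls, 1 in each test was LOC110529383, which had also fallen with all libraries. The other lower calls were 7 of the 8 members against 1.57 ng/L, all but LOC110506315, and all 8 against 1.13 ng/L. Since the 8 were picked for the gap of the library that was left out, these counts are a description and support nothing. The log2 difference of XR_002474306.1 without that library was -2.39 from 1.13 ng/L and -1.93 from 1.57 ng/L, and that of pink1 was -1.33 and -1.15.

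**Figure D5:**
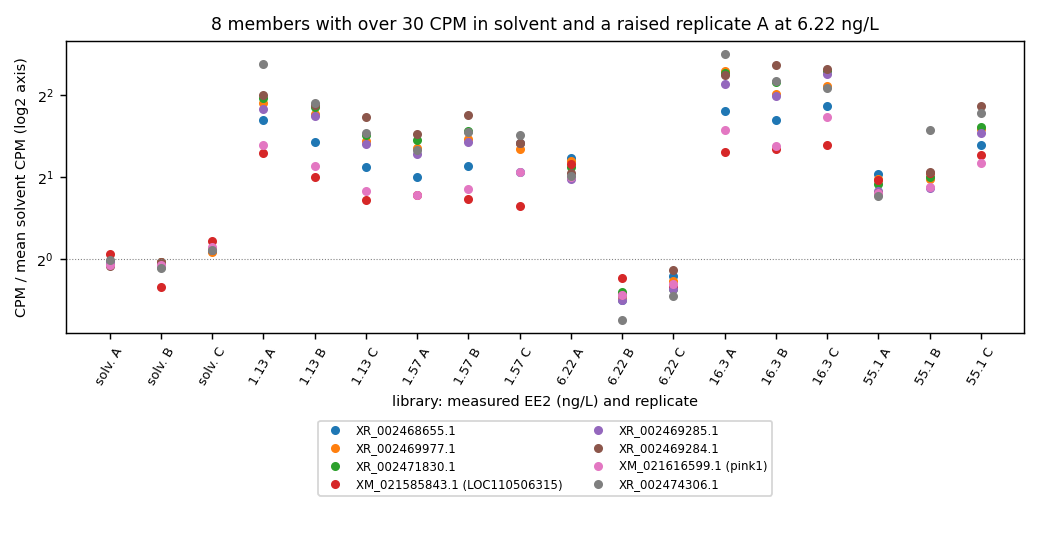
CPM relative to the mean solvent CPM (log2 axis) in each of the 18 libraries for the 8 members above 30 CPM in solvent in which replicate A of 6.22 ng/L was over 2 times both other libraries; replicates have no order. Replicate A of 6.22 ng/L sits with the exposed libraries, and replicates B and C sit below the dotted line of the solvent mean.

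Reads of a gene can be shared out differently among its transcripts, so the members' genes were also summed. Only 53.5% of all transcripts matched a name, so any unmatched transcripts of these genes are missing from the sums. Of 31 named genes 21 have 1 matched transcript and 10 have several. For the 21 the sum is the member itself, which meets the ratio of 1.4 by the rule. Of the 10 with several matched transcripts, 5 gene sums met it. Those of rcn3, LOC110521878, LOC110530443, LOC100135939 and zgc:123010 did not, and in each of these 1 matched transcript was a member. The gene sum of rcn3 was 57.2 CPM in solvent and 66.5 CPM at 55.1 ng/L, and its member transcript held 4.53% of the solvent sum. The other matched transcript of rcn3 had 54.6 CPM in solvent and 52.6 CPM at 55.1 ng/L. The gene sum of cnpy1, over 3 matched transcripts, went from 3.44 CPM in solvent to 10.1 CPM at 55.1 ng/L.

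In 6 members at least 1 library was at or under 0.05 CPM while others of its group were not. XM_021576900.1 was at 0 CPM in replicates A and B of 1.57 ng/L and at 4.90 CPM in C. LOC110530443 and LOC100135939 were near 0 in replicate B of solvent alone in that group, LOC110530443 also in C of 6.22 ng/L. XM_021561903.1 and XM_021558807.1 were near 0 in replicate B of 6.22 ng/L. XM_021598367.1 had 1.49, 0.00151 and 1.62 CPM in solvent, which puts its mean just above the minimum, and 5.01 to 16.9 CPM in the high groups; its accession is not in the table, so its gene is not named. That accession is close to the one of the excluded esr1 transcript, and whether it also belongs to esr1, which would take it out of the set, was not checked here. LOC110521878 varied widely in solvent, with 0.341, 3.32 and 24.7 CPM, beside 36.6 to 50.8 CPM in the high groups.

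Near the threshold, the members just inside were XM_021576494.1 with a ratio of 1.42, XM_021599453.1 of LOC100135939 with 1.41 and LOC110489602 with 1.405. LOC110489602 had 64.2 to 70.6 CPM in solvent, 76.3 to 100.1 CPM over the 9 libraries of 1.13 to 6.22 ng/L and 99.1 to 158 CPM at the 2 high concentrations. Just outside were bahd1, for a protein of heterochromatin, with 1.395, XM_021585987.1 with 1.38 and LOC100136343 with 1.37. LOC100136343 had 3.57 to 4.19 CPM in solvent, 5.74 to 6.30 CPM at 16.3 ng/L and 7.45 to 11.1 CPM at 55.1 ng/L. Without solvent replicate B 83 transcripts would have met the rule and without C 92, so the highest solvent library held many out. The excluded esr1 transcript XM_021598364.1 had 1.30 to 1.93 CPM in solvent and 11.4 to 21.6 CPM at the high concentrations; at 6.22 ng/L it had 15.9, 0.448 and 21.2 CPM.

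The set was also read against lists of related genes, found by symbol. The lists were chosen with earlier results of these data known, so a member in a list is a description. Of all expressed transcripts 0.119% met the rule, so a short list without a member says little. Of 44 transcripts for protein folding and export in the endoplasmic reticulum, 39 were expressed and 2, mcfd2 and cnpy1, were members. The median log2 ratio of the expressed ones to solvent was 0.13 at 16.3 ng/L and -0.11 at 55.1 ng/L. At 6.22 ng/L 2 of 41 tested rose and 2 fell against 1.13 ng/L, and 1 rose and 1 fell against 1.57 ng/L. Of 11 transcripts for inositol, nucleoside and amino acid handling 2, miox and pnp4b, were members. Against both lower concentrations miox alone rose in this list and asns, for asparagine synthetase, fell. None of the 24 transcripts found by symbol for sterol and lipid synthesis was a member. The member fd6d, a desaturase of fatty acid synthesis that rose in both tests of 6.22 ng/L, is not in that count, since its symbol is not in the list. Of 21 tested in the list 1, fdft1 of the squalene pathway, rose in both tests. None of 9 cell cycle transcripts was a member, and top2a, a DNA topoisomerase, fell in both tests. Of 5 transcripts for yolk and egg envelope proteins only 1 had a mean solvent level of at least 1 CPM, and it was not a member. The others could not be members by the rule. Of 3 tested, zp2.3 and vtg3 rose in both tests.

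Cell type markers showed the whole fish and shifted between groups. Summed hepatocyte and plasma protein markers (21 transcripts, 0 members) lay at 2403 to 2937 CPM in solvent, 3179 to 3739 CPM at 1.13 ng/L, 2832 to 3309 CPM at 1.57 ng/L, 2213 to 2939 CPM at 6.22 ng/L, 2025 to 2682 CPM at 16.3 ng/L and 1779 to 2309 CPM at 55.1 ng/L. Skeletal muscle markers (22 transcripts, 0 members) lay at 9963 to 10889.7 CPM in solvent, 8757 to 10824 CPM over the 6 libraries of 1.13 and 1.57 ng/L, 10540.2 to 13428 CPM at 6.22 ng/L and 12472 to 13195 CPM at 55.1 ng/L. Erythrocyte markers (9 transcripts, 0 members) lay at 231 to 294 CPM in solvent, 196 to 295 CPM over the 6 libraries of 1.13 and 1.57 ng/L, 145 to 215 CPM at 6.22 ng/L and 138 to 161 CPM at 55.1 ng/L. Cartilage and bone markers (7 transcripts, 0 members) lay at 325 to 387 CPM in solvent, 553 to 703 CPM at 1.13 ng/L, 647 to 703 CPM at 1.57 ng/L, 291 to 328 CPM at 6.22 ng/L, 374 to 398 CPM at 16.3 ng/L and 264 to 275 CPM at 55.1 ng/L. Epidermis markers (8 transcripts, 0 members) lay at 1775 to 2627 CPM in solvent, 2149 to 3682 CPM at 1.13 ng/L, 3146 to 4007 CPM at 1.57 ng/L, 1761 to 2182 CPM at 6.22 ng/L, 2104 to 3274 CPM at 16.3 ng/L and 1659 to 1951 CPM at 55.1 ng/L. Cartilage and bone sums at 1.13 and 1.57 ng/L and epidermis sums at 1.57 ng/L thus lay above all libraries of solvent and 6.22 ng/L, and epidermis sums at 1.13 ng/L overlapped both. The 14 members with the second kind of course were picked for lying above solvent at 1.13 and 1.57 ng/L but not in every library of 6.22 ng/L. At 16.3 ng/L the cartilage and bone sums and the epidermis sums overlapped solvent. The 14 members lie above solvent there by the rule, so no comparison is drawn. Immune cell markers (9 transcripts) include cd209, and their sum lay at 30.6 to 35.0 CPM in solvent and 40.3 to 56.6 CPM at 55.1 ng/L. Of the sum at 55.1 ng/L cd209 alone held 33.6 to 47.9 CPM, and the median log2 ratio of the 5 expressed immune transcripts at 55.1 ng/L was -0.91. Between 6.22 and 1.13 ng/L, 1 hepatocyte transcript rose and 3 fell of 21, 2 muscle transcripts rose and 1 fell of 16, 0 of 7 erythrocyte transcripts passed, 2 epidermis transcripts fell of 8, 5 cartilage and bone transcripts fell of 7, and themis alone of 6 immune transcripts fell. Against 1.57 ng/L, 1 hepatocyte, 1 muscle, 2 epidermis and 6 cartilage and bone transcripts fell, and 0 erythrocyte and 0 immune transcripts passed. The part of these shifts in the members' values was not tested.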

How the data were processed

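The submitters' processing notes name Trimmomatic 0.38 for reads, kallisto and DESeq2; versions of the last 2 and the genome build are not given in the sources used here. Each deposited table lists, per the file headers, 79244 transcripts with estimated counts, TPM, length and effective length. A directional kit was used after poly(A) selection, per the labels' protocols. The estimated counts were used as CPM of the file total; the deposited TPM served an alternative and the lengths checks. The authors' tables of comparisons with solvent and a table that repeats the counts were not used. Names came by accession without version from the RefSeq table of assembly GCF_013265735.2 (USDA_OmykA_1.1); promoters were not analysed here.

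Members were found by the rule given above. For the tests, estimated counts of the 9 libraries of 1.13, 1.57 and 6.22 ng/L were rounded, filtered with filterByExpr, scaled with TMM and tested by edgeR's quasi-likelihood method (edgeR 4.0.16, R 4.3.3). The Benjamini-Hochberg adjustment ran over all 58149 transcripts tested, the threshold was 0.05, and every adjusted p printed is from edgeR unless DESeq2 (1.42.0) is named. Within a group, libraries differed by more than sampling noise, so none was counted as a repeat. Depth limits low members most, since at the solvent minimum of 1 CPM a library holds few reads.

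Named were the 12 members with the largest ratio, the 8 with the highest solvent level, up to 5 per direction in each test, members of 11 gene lists (the 5 pathway and 6 cell type lists above) and 3 on each side of the threshold; every other member named was chosen after its values were seen. The members and lists were chosen with earlier results of these data known. Alternatives covered the rule's thresholds, scaling, tool, filter, length trend, replicate block and each library left out; TPM and each high group alone were added after seeing the data.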

Additional observations from a re-analysis of the deposited data

How the results depend on the processing

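The rule gave 95 members at a ratio of 1.2, 17 at 2 and 25 at a solvent minimum of 5 CPM, against 53; 16.3 ng/L alone gave 158 and 55.1 ng/L alone 110 (both added later), and leaving out single libraries 56 to 92. With TMM scaling 75 transcripts met it and 50 of the 53 were among them. Members called at 6.22 against 1.57 ng/L were 8, against 19 in DESeq2, 5 without a filter, 4 with a replicate block and 3 to 12 with 1 library left out. Transcripts called were 1813, against 3306 with all 18 libraries, 7887 in DESeq2, 1133 with length trends removed (661 higher and 472 lower, against 664 and 1149), 603 with the replicate block and 285 to 1557 with 1 library left out. Against 1.13 ng/L members called were 17, against 31 in DESeq2, 12 with the block and 6 to 24 with 1 library left out; transcripts were 3780, against 10277 in DESeq2, 1857 with the block, 710 to 2898 with 1 left out and 4397 with length trends removed (3275 higher and 1122 lower, against 1603 and 2177). Between 1.57 and 1.13 ng/L, 18 libraries gave 2 members and 14 transcripts, DESeq2 5 and 695, and single libraries left out 0 to 7 transcripts. The fit of 18 libraries takes part of its spread from the libraries that chose the members. Its member counts, here and below, are therefore a description. The median log2 ratio was 0.24 to 0.49 at 1.13 ng/L and 0.50 to 0.74 at 1.57 ng/L with 1 library left out, and 0.95 at 6.22 ng/L with TMM. The counts depended on which library was left out. Against 1.13 ng/L, 710 transcripts were called without B of 1.13 ng/L and 2898 without B of 6.22 ng/L. The reason was not tested, nor was the part of the fewer degrees of freedom in these fits. The replicate letters showed no pairing among the libraries of 1.13, 1.57 and 6.22 ng/L. Deviations of same-letter libraries correlated there at -0.012 to 0.022 (across transcripts) and other letters at -0.033 to 0.022. The libraries of solvent, 16.3 and 55.1 ng/L were not checked for pairing. No call of a single member named here changed sign in an alternative run, but the balance of calls did. Without replicate A of 6.22 ng/L, members called were 4 higher and 8 lower against 1.57 ng/L (7 and 1 with all libraries) and 15 and 9 against 1.13 ng/L (16 and 1), and the fitted value of 2 members in each test, none of them called, changed sign. With no library left out, members called against 1.13 ng/L were 19 higher and 5 lower in the fit of 18 libraries and 25 and 6 in DESeq2. Of all transcripts called there, 2413 of 5237 and 4891 of 10277 were higher. Against 1.57 ng/L these 2 runs called 11 and 17 members higher and 1 and 2 lower. In the run with length trends removed, the transcripts called turned from mostly lower to mostly higher in both tests, by the counts above. That run also took out the general shift of each library, which TMM scaling had already corrected. The part of transcript length in this turn was therefore not tested. Of all values compared under the alternatives 412 stayed, 47 moved, and 86 were a call of a single member lost in 1 run. A call is counted once for each run that lost it, so the 86 come from the 17 and 8 member calls of the 2 tests. A count stayed if it was within a set factor of the reported count, so it could still differ from it. A median ratio stayed if it was within the SD of the library medians, and a call of a single member if it still passed the threshold.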
